A study of Drosophila melanogaster with 8 samples.

Results

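Transcript levels of genes that build, store, release and carry fat were examined in fly heads with and without RNA editing. The set was fixed by name as FASN1, ACC, bmm, Lsd-1, Lsd-2, mdy, Lpin, apolpp, Mtp and SREBP. It was chosen with earlier results of these data known, and each gene was looked up by its FlyBase identifier. Of these 10 genes, 9 were found among the 14622 identifiers of the expression table. FASN1 was absent under its current identifier (FBgn0283427) and was not analysed here. Whether the table holds it under an older identifier was not settled. All 9 also passed the filter for testing. Poly(A) RNA per the labels, depleted of ribosomal RNA per the protocol, came from heads of 3 day old male flies grown at 18 °C. The mutant group (EA) carried y, sc and Adar E374A, a point mutation that inactivates the ADAR deaminase but leaves the protein in place. The control group (WT) was white Canton-S. Per the study's methods the mutant arose by CRISPR on a y sc background and had been backcrossed to white Canton-S, so EA and WT differ by the linked markers as well as by Adar. Each group had 4 libraries, and nothing in the labels says whether these came from separate cultures, so the p-values measure the spread between these libraries.

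The fat body is the insect counterpart of liver and adipose tissue, and a lobe of it lies in the head around the brain. Fatty acids made by acetyl-CoA carboxylase and fatty acid synthase are esterified to triacylglycerol, packed into droplets coated by perilipins, and released again by lipases. Lipids leave the fat body on lipophorin particles, whose scaffold protein is made from apolpp and is loaded with lipid by the microsomal transfer protein.

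The libraries held between 9930607 and 24342035 reads, and the 9 genes were covered by 165 reads (mdy) to 164631 reads (apolpp) per library. Values are normalized counts, which are reads divided by 1 size factor per library, and values of a group are given in the order of replicates 1 to 4. Differences were tested with limma on log2(normalized count + 1), and p-values were adjusted over the 10347 genes tested. Transcripts of w, which is mutant in the WT strain, were at 134.1 to 189.3 normalized counts in EA and at most 3 reads in any WT library. Adar itself did not pass the test (log2 fold change 0.28, limma adjusted p = 0.594). The first principal component took up 39.1% of the variance. On it EA lay at -28.5, -11, -35.7 and -19.2 and WT at 1.4, 39.5, 7.5 and 46.0. The groups did not overlap there, and WT replicates 2 and 4 stood apart from the other libraries.

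None of the 9 genes (0 of 9) passed an adjusted p of 0.05 in limma, where 125 of all tested genes (1.21%) did. By direction, these were 0.657% with a higher and 0.551% with a lower level in EA. An unadjusted p under 0.05 was reached by 4 of the 9, against 12.7% of all tested genes. With edgeR and with DESeq2, run on recovered reads, 1 of the 9 passed, against 1.22% and 5.16% of all genes with an adjusted p. That gene was apolpp in both tests. In 7 of the 9 genes the EA level was the higher one, and 49.3% of all tested genes had a positive log2 fold change. The median log2 fold change over the 9 was 0.43, against -0.003 over all tested genes. It dropped to 0.21 without EA replicate 3 and to 0.27 without WT replicate 1.

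**Figure D1:**
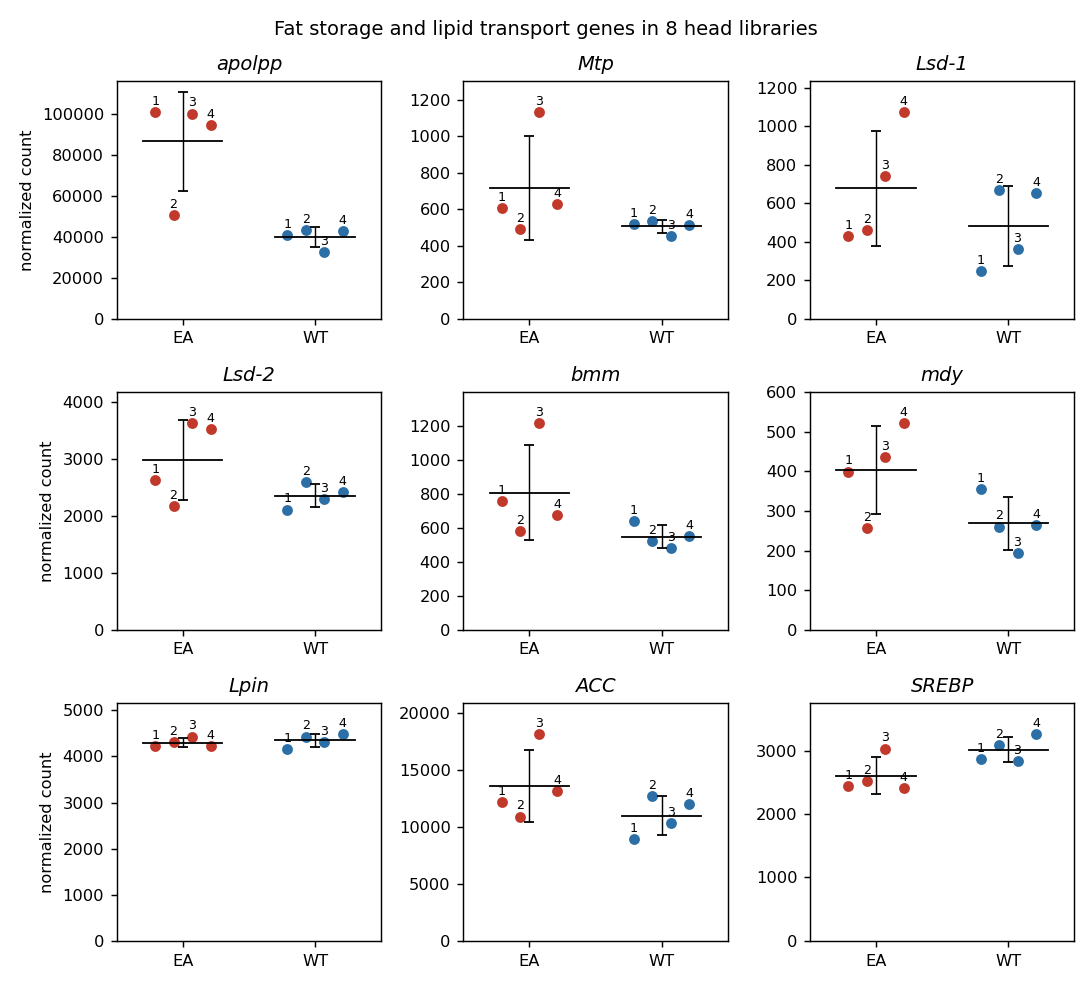
Normalized count (vertical axis, from 0, 1 scale per gene) of the 9 genes in 4 EA and 4 WT libraries. Points are libraries with their replicate number, lines are group means and bars are SD. The 4 EA libraries of apolpp lie between 50807 and 101035, above all WT libraries, and in the other 8 genes the groups overlap.

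The gene with the largest difference was apolpp (FBgn0087002, chromosome 4, 1060969 to 1077273), which encodes the apolipophorin precursor, the protein core of the fly's circulating lipoprotein. Its normalized count was 101035, 50807, 100231 and 94461 in EA and 40745, 43134, 32657 and 42694 in WT. All EA libraries lay above all WT libraries, as they did in one direction or the other for 7.99% of all tested genes. EA replicate 2 was the low one of its group, and lay closer to WT than to the other EA libraries. The EA level was 2.11-fold that of WT, with a 95% interval of 1.49 to 2.98 (log2 fold change 1.08 ± 0.22, SE, n = 4 per group). The limma adjusted p was 0.0569, just outside the threshold. It was 0.0452 in edgeR and 1.42e-05 in DESeq2. An exact two-sided permutation test gave an unadjusted p of 0.0286, the smallest that 70 assignments of 4 against 4 can give. That value follows from the lack of overlap and adds nothing to it. The other genes of the set gave 0.0571 (bmm) to 0.629 (Lpin) in the same test.

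Of the 8 fits without 1 library, only that without EA replicate 2 brought apolpp under the threshold. There the log2 fold change was 1.32 and the limma adjusted p = 0.00327. In each of the 7 other fits without 1 library the log2 fold change lay between 0.98 and 1.12, with an adjusted p from 0.0886 (without EA replicate 3) to 0.169 (without WT replicate 3). With all libraries, scaling to library totals gave 0.0164 and upper-quartile scaling 0.0438. As a share of all reads in the table, apolpp transcripts took 0.704%, 0.39%, 0.697% and 0.676% in EA. In WT replicates 1 to 4 the share was 0.261%, 0.275%, 0.221% and 0.322%. No WT library reached the lowest EA share. Exonic bases of apolpp overlap those of genes on the opposite strand over 5.75% of their length at most per gene, and the sources used here do not state whether reads were counted by strand.

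Its partner Mtp (FBgn0266369, chromosome 2L, 20919094 to 20922876) encodes the microsomal triglyceride transfer protein, which lipidates lipophorin in the endoplasmic reticulum. Its normalized count was 605.0, 491.3, 1134 and 629.4 in EA and 520.0, 536.8, 452.1 and 514.9 in WT. EA replicate 2 fell inside the WT range, replicates 1 and 4 lay a little above it and replicate 3 far above it. On the log2 scale EA exceeded WT by 0.43 ± 0.22 (SE, 4 libraries each; adjusted p = 0.472 in limma), and by 0.18 once EA replicate 3 was left out. The count of apolpp per count of Mtp was 167, 103, 88.4 and 150 in EA and 78.4, 80.4, 72.2 and 82.9 in WT, with no overlap between the groups. This ratio was chosen after the values were seen and was not tested.

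**Figure D2:**
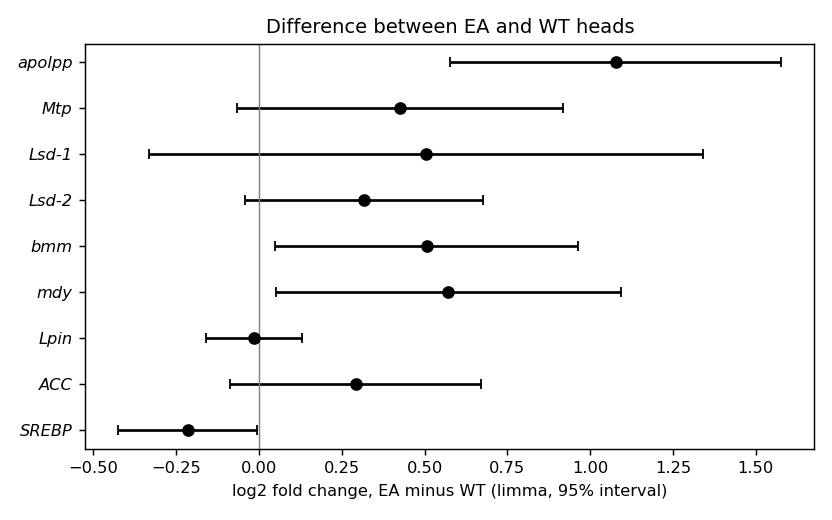
Log2 fold change of EA over WT (horizontal axis) for each of the 9 genes, as points with 95% intervals from limma. The interval of apolpp runs from 0.58 to 1.58, and the intervals of bmm, mdy and SREBP also leave out 0 before any adjustment for multiple testing.

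The perilipins coat the surface of lipid droplets. In flies Lsd-1 takes part in hormone-stimulated fat release and Lsd-2 shields the stored fat from lipases. Lsd-1 (FBgn0039114, chromosome 3R, 23763857 to 23766662) was the most variable of the 9 genes. Libraries held normalized counts of 429.7, 461.5, 741.7 and 1073 in EA and 247.4, 666.3, 362.5 and 649.9 in WT. Within WT alone the highest library was 2.69-fold the lowest, which is more than the 1.42-fold difference between the groups (limma adjusted p = 0.653). Its interval of 0.79 to 2.53-fold left room for a change in either direction. On the log2 scale the difference of 0.50 became 0.25 without EA replicate 4 and 0.22 without WT replicate 1. Leaving out WT replicates 2 and 4 together raised it to 1.07. Lsd-1 shares 7.35% of its exonic bases with CG10214 on the opposite strand.

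Lsd-2 (FBgn0030608, chromosome X, 15069127 to 15076220) was steadier, at 2628, 2175, 3630 and 3519 in EA and 2112, 2591, 2293 and 2417 in WT. EA replicates 3 and 4 stood above every WT library, replicate 1 just above them, and replicate 2 inside the WT range. The fold was 1.25 with an interval of 0.97 to 1.60 (limma adjusted p = 0.460). The count of Lsd-1 per count of Lsd-2 lay between 0.163 and 0.305 in EA against 0.117 to 0.269 in WT, so the balance of the perilipins overlapped between the groups.

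Fat is released by bmm (FBgn0036449, chromosome 3L, 14776496 to 14786412), the fly homologue of adipose triglyceride lipase. The libraries were at 757.4, 581.9, 1217 and 677.1 normalized counts in EA and 637.8, 524.2, 483.3 and 551.6 in WT. EA replicate 2 fell inside the WT range and the other EA libraries lay above it. The fold was 1.42 (95% interval 1.03 to 1.95, unadjusted p = 0.0333 and adjusted p = 0.336 in limma). Without EA replicate 3 the log2 fold change dropped from 0.51 to 0.29.

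The last step of triacylglycerol synthesis is carried out by mdy (FBgn0004797, chromosome 2L, 16816660 to 16826964), a diacylglycerol acyltransferase. Counts of mdy were 399.9, 256.7, 435.4 and 522.1 in EA and 354.6, 260.5, 194.2 and 265.1 in WT. As with bmm, only EA replicate 2 fell inside the WT range. The fold was 1.49 (95% interval 1.04 to 2.13, unadjusted p = 0.0346 and adjusted p = 0.339 in limma). The count of bmm per count of mdy, lipase over acyltransferase, lay between 1.30 and 2.79 in EA against 1.80 to 2.49 in WT, so the WT range lay within that of EA.

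Lpin (FBgn0263593, chromosome 2R, 8136986 to 8156654) encodes lipin, the phosphatidate phosphatase one step upstream of mdy. Levels were 4230, 4310, 4431 and 4222 normalized counts in EA and 4157, 4429, 4315 and 4479 in WT. It was the steadiest of the 9 genes, with the highest library 1.05-fold the lowest in EA and 1.08-fold in WT. The fold of EA over WT was 0.99 with an interval of 0.89 to 1.09 (limma adjusted p = 0.964). Lpin shares 10.89% of its exonic bases with kermit on the same strand.

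ACC (FBgn0033246, chromosome 2R, 7974115 to 7991862) encodes acetyl-CoA carboxylase, which makes malonyl-CoA, the building unit of fatty acids. Libraries held 12185, 10925, 18156 and 13142 normalized counts in EA and 8939, 12691, 10361 and 12041 in WT. EA replicate 3 was again the high library, and the remaining EA values lay within or near the WT range. The fold was 1.22 with an interval of 0.94 to 1.59 (limma adjusted p = 0.537). The log2 fold change of 0.29 became 0.14 without EA replicate 3 and 0.47 without WT replicates 2 and 4.

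SREBP (FBgn0261283, chromosome 3L, 19793935 to 19798979), the membrane-bound transcription factor that drives fatty acid synthesis genes in flies, was lower in EA on average, as Lpin was by a smaller margin. Its level was 2438, 2521, 3033 and 2414 normalized counts in EA and 2871, 3082, 2834 and 3258 in WT. EA replicates 1, 2 and 4 lay below every WT library and replicate 3 lay among them. The fold was 0.86, with an interval of -0.42 to -0.006 on the log2 scale (unadjusted p = 0.0446 and adjusted p = 0.377 in limma). The log2 fold change of -0.215 became -0.127 with scaling to library totals and -0.139 without WT replicates 2 and 4. The count of ACC, a target of SREBP, per count of SREBP was 5, 4.33, 5.99 and 5.44 in EA and 3.11, 4.12, 3.66 and 3.70 in WT, with no overlap between the groups. The ratio was chosen after the values were seen and was not tested.

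Per kilobase of annotated exon, apolpp was the most abundant of the 9 transcripts in both groups, at 7360 ± 2050 normalized counts in EA and 3380 ± 415 in WT (SD, n = 4). ACC came next at 1500 ± 349 and 1210 ± 187. Lpin followed at 780 ± 17.5 in EA and 788 ± 25.9 in WT. In EA the libraries of Lpin and Lsd-2 overlapped, as did those of Lsd-2 and SREBP. In WT those of Lpin and SREBP overlapped and those of SREBP and Lsd-2 did not. The lower end was Lsd-1, bmm, Mtp and mdy in both groups, with mdy at 150 ± 41.1 in EA and 99.9 ± 24.5 in WT. Each of these overlapped the next in EA, whereas in WT only Lsd-1 and bmm did.

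Within a group, the 9 genes tended to be high or low in the same libraries. EA replicate 3 held the highest EA value in 6 of the 9 genes and EA replicate 2 the lowest EA value in 6 of the 9. In WT, replicate 3 was lowest in 5 genes and replicate 1 in 4, whereas replicate 2 was highest in 5. After the group means were removed, Pearson's r between 2 of the genes over the 8 libraries was positive in 35 of 36 pairs, with a median of 0.57. Over all pairs of tested genes it was positive in 50% with a median of 0. All genes of a library share its dissection, RNA and depth, and what made the 9 genes move together was not tested. Over the 8 libraries, with group means kept, r reached 0.96 for bmm and Mtp and was lowest, at -0.49, for apolpp and SREBP. The coefficient of variation was larger in EA than in WT for 8 of the 9 genes, against 54.6% of all tested genes. For Mtp it was 40% in EA and 7.3% in WT, but for Lsd-1 44.2% and 43.5%. As the genes moved together within a group, these 8 are not separate observations.

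**Figure D3:**
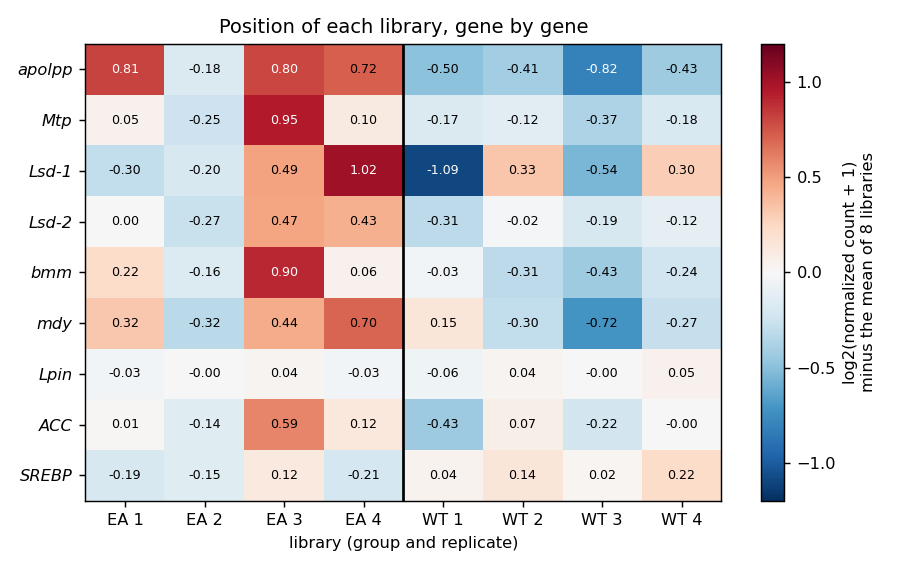
Log2(normalized count + 1) of each gene (rows) in each library (columns), minus the mean of that gene over all 8 libraries, with red above and blue below the mean. EA replicate 3 is high in most rows and EA replicate 2 low, the Lpin row is nearly flat, and the SREBP row is low in EA replicates 1, 2 and 4.

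The tested genes outside the set whose log2 level followed the mean centred profile of the 9 most closely over the 8 libraries were CG11899 (Pearson's r = 0.99), Cyp12c1 (0.99), CG6429 (0.99), CG33493 (0.98) and Gart (0.98). Cyp12c1 belongs to the cytochrome P450 family and Gart encodes an enzyme of purine synthesis. Their log2 fold changes ran from 0.61 (CG6429) to 0.95 (Cyp12c1), and their limma adjusted p-values from 0.14 (Gart) to 0.249 (Cyp12c1).

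Because apolpp is a product of the fat body, the level of other fat body genes was measured in the same libraries. In bulk heads, a change in the number of fat body cells and a change in RNA per cell cannot be told apart. The sum over 18 other fat body markers was 41445, 28683, 58386 and 53487 normalized counts in EA and 27669, 35565, 23045 and 32786 in WT. The groups overlapped, and EA replicate 2 was again the low one of its group and EA replicate 3 the high one. Adh, alcohol dehydrogenase, made up 52.9% to 60.5% of this sum in EA and 63.7% to 69.1% in WT. The make-up of the sum thus differed between the groups. With apolpp counted among them, 15 fat body markers were tested, of which 9 had a positive and 6 a negative log2 fold change. Among these 0 passed the limma test, against 1.21% of all tested genes. The largest positive values were in the storage protein gene Lsp2 (2.87 ± 0.67, SE; limma adjusted p = 0.0864) and in Fbp1, the gene of a storage protein receptor (2.39, limma adjusted p = 0.354). The largest negative value was in Galphaf, a G protein subunit gene, at 34.4, 50.1, 39.4 and 47.0 in EA and 58.2, 96.3, 109 and 87.9 in WT. All EA libraries of Galphaf lay below all WT libraries (log2 fold change -1.001 ± 0.214, SE; limma adjusted p = 0.0635, DESeq2 adjusted p = 0.00138). It was followed by to (-0.68, limma adjusted p = 0.501) and the storage protein gene Lsp1beta (-0.55, limma adjusted p = 0.446). Fbp1 was at 0 reads in 2 libraries and Yp1, a yolk protein gene of the female fat body, in 4. Of the 15, edgeR passed 2, apolpp and Obp99b, both higher in EA, and DESeq2 passed 4 higher and 1 lower. Among all genes edgeR passed 1.22% and DESeq2 5.16%, both directions together. An unadjusted p under 0.05 was reached by 7 of them in the direction of EA and by 1 in that of WT, where all tested genes gave 7% and 5.65%.

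Set against that sum, apolpp was at 2.44, 1.77, 1.72 and 1.77 in EA and at 1.47, 1.21, 1.42 and 1.30 in WT. The groups did not overlap, and EA replicate 2 no longer stood below the other EA libraries. For the 8 other genes the ratio to the same sum overlapped between EA and WT. Against the mean log2 level of the 14 tested markers instead of their sum, apolpp lay 7.39 to 7.92 log2 units higher in EA against 6.91 to 7.41 in WT, which overlapped narrowly. Pepck1, an abundant marker in the sum, had 11661, 5267, 17844 and 15166 in EA and 4318, 6776, 4638 and 5501 in WT. Its log2 fold change was 1.12 (limma adjusted p = 0.176, DESeq2 adjusted p = 0.00277), beside 1.08 for apolpp. The separation of apolpp thus depended on the markers it was set against. Markers of other cell types also differed between libraries. The summed eye markers were higher in every EA library (387738 to 460282) than in WT (281203 to 348419). Of the 12 tested, 11 had a positive log2 fold change, the smallest in trp (0.02), and 1 a negative one. Of these, inaC, Arr2 and Arr1 passed the limma test (adjusted p = 0.0166, 0.0166 and 0.0492), against 1.21% of all tested genes. The negative one was trpl, lower in every EA library than in WT (-0.256, limma adjusted p = 0.218, DESeq2 adjusted p = 0.0279). The sum of oenocyte and hemocyte markers was 11388 and 10688 in EA replicates 3 and 4 and between 4996 and 7169 in the other 6 libraries. No marker of neurons, glia, muscle, oenocytes or hemocytes (0 genes) passed the limma test. Tested were 10 for neurons, 10 for glia, 9 for muscle and 10 for oenocytes and hemocytes together. Of these 4 lists, 6 genes had an unadjusted limma p under 0.05 in the direction of EA and 2 in that of WT. All tested genes gave 7% and 5.65%. DESeq2 passed Syt1 (adjusted p = 6.77e-05), the muscle gene sls (0.000281) and eater (0.00469), higher in EA, and bond (0.0023), lower. Among all genes it passed 5.16%. The largest log2 fold changes in these lists were those of the hemocyte receptor genes eater (1.41) and Sr-CI (1.29), of Syt1 (0.95) and Rdl (0.19) in neurons, of alrm (0.38) and CG9691 (0.30) in glia, and of Act57B (0.40) and fln (-0.34) in muscle. The part of any of these cell types in the lipid gene values was not tested.

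**Figure D4:**
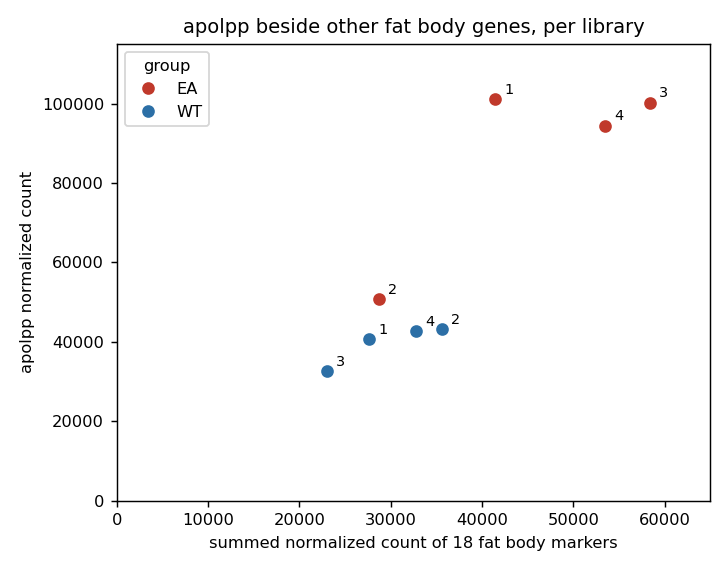
Normalized count of apolpp (vertical axis) against the summed normalized count of 18 other fat body markers (horizontal axis) in each library, with replicate numbers. EA replicate 2 has a marker sum (28683) inside the WT range and an apolpp count (50807) above it.

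Around these 9 genes, 92 other genes of fat metabolism were tested, from 6 lists that cover synthesis of fatty acids, synthesis of triacylglycerol, lipid droplets, lipid transport, fatty acid oxidation and regulators. The lists were chosen with earlier results of these data known, so their counts beside the shares of all genes are description only. Of the 92, 3 rose in EA and 0 fell in limma, where 0.657% of all tested genes rose and 0.551% fell. An unadjusted p under 0.05 was reached by 12 with a higher level in EA, against 7% of all tested genes, and by 7 with a lower level, against 5.65%. With DESeq2, 7 rose and 3 fell, against 5.16% of all genes in both directions together. With edgeR the same 3 as in limma passed, against 1.22% of all genes. All 3 belong to the list of regulators of fat storage. CCHa2 is a nutrient-responsive peptide hormone of the fat body and gut. It had a normalized count of 2595, 1830, 2372 and 1769 in EA and 390.3, 483.1, 371.1 and 420.1 in WT (log2 fold change 2.35 ± 0.14, SE; limma adjusted p = 8.28e-05).

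Ilp6, an insulin-like peptide gene of the fat body, had 696.7, 422.8, 819.4 and 635.7 in EA and 296.4, 270.0, 315.0 and 296.2 in WT. No value of one group reached the other, and EA replicate 2 was the lowest of its group, as it was for apolpp. EA exceeded WT by 1.09 ± 0.18 on the log2 scale (SE, limma adjusted p = 0.0212). The glucosidase gene tobi, a target of brain insulin and adipokinetic hormone signals, had 220.0, 188.1, 596.2 and 578.4 in EA and 52.9, 121.6, 66.9 and 87.9 in WT (2.13 ± 0.41, limma adjusted p = 0.0479). Only CCHa2 remained under 0.05 without EA replicate 1, EA replicate 4 or any of WT replicates 2, 3 and 4, where the count of 3 became 1. Without WT replicate 1 the adjusted p was 0.0528 for Ilp6 and 0.098 for tobi, while the elongase genes Baldspot and bond then passed with a lower level in EA (0.0142 and 0.0259). Without EA replicate 3 it was 0.0652 for tobi. With all libraries, tobi also missed the threshold with a pseudocount of 8 (0.0502), with no filter on low counts (0.0519) and with a minimum mean of 50 (0.0535).

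Of the 24 tested genes of the regulators list, SREBP among them, 10 had a positive and 14 a negative log2 fold change. The median was -0.03, and 49.3% of all tested genes had a positive value. In DESeq2 4 of the list passed, all with a higher level, against 5.16% of all genes. An unadjusted limma p under 0.05 was reached by 5 with a higher and 4 with a lower level in EA. All tested genes gave 7% and 5.65%. The 4 lower ones were SREBP, its escort protein gene SCAP (-0.155, limma adjusted p = 0.368), ImpL2, a secreted inhibitor of insulin signals (-0.58, limma adjusted p = 0.273), and daw, an activin-like ligand (-0.41, limma adjusted p = 0.391). SCAP was at 1421, 1387, 1416 and 1459 in EA and 1553, 1552, 1694 and 1532 in WT, with all EA libraries below WT, whereas the groups of ImpL2 and daw overlapped.

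**Figure D5:**
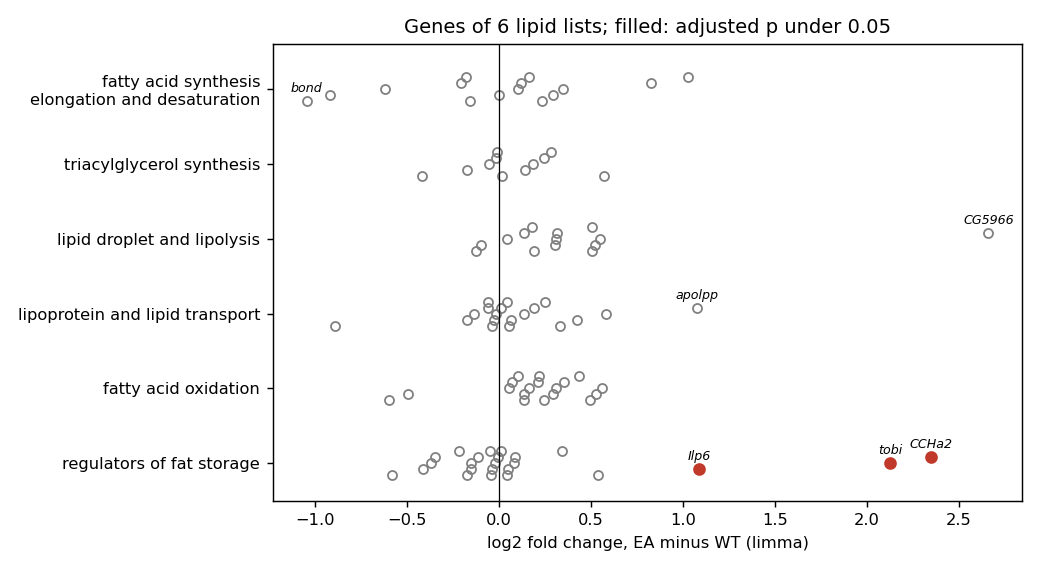
Log2 fold change of EA over WT (horizontal axis) for every tested gene of 6 lipid lists (rows, the 9 genes included). Filled points passed an adjusted p of 0.05 in limma. They are CCHa2, tobi and Ilp6, and the open point at 2.66 is the lipase gene CG5966.

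No gene of the 5 other lists passed in limma (0 genes), and the lists differed in how many of their genes had a positive log2 fold change. The lists overlap with the 9 genes, which are counted here. Counts of each list stand against 49.3% of all tested genes with a positive value, 12.7% with an unadjusted p under 0.05, 5.16% passing in DESeq2 and 1.22% in edgeR. Fatty acid oxidation had 16 positive of 18 (median 0.21), with 2 at an unadjusted p under 0.05, 0 in DESeq2 and 0 in edgeR. The extremes were Acbp2, an acyl-CoA binding protein (-0.60), and scu, a mitochondrial dehydrogenase (0.56). Lipid droplet and lipolysis genes had 12 positive of 14 (median 0.31), with 3 at an unadjusted p under 0.05, 2 in DESeq2 and 0 in edgeR.

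The largest difference in the droplet list was in CG5966, annotated by homology as a lipase. It had 446.9, 82.6, 1842 and 440.1 in EA and 49.0, 77.4, 48.6 and 97.6 in WT (log2 fold change 2.66 ± 0.75, SE; limma adjusted p = 0.154 and DESeq2 adjusted p = 0.0026). EA replicate 2 lay inside the WT range and the other 3 above it, with replicate 3 by far the highest, as for bmm and Mtp. Next came the lipase gene Lip3 (0.55, limma adjusted p = 0.404).

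Triacylglycerol synthesis had 6 positive of 11 (median 0.018), with mdy the highest at 0.57 and Agpat4, an acyltransferase, the lowest at -0.42. In this list 1 gene had an unadjusted p under 0.05 in limma, and 0 passed in DESeq2 or edgeR. Synthesis, elongation and desaturation of fatty acids had 8 positive of 15 (median 0.10), with 5 at an unadjusted p under 0.05, 3 in DESeq2 and 0 in edgeR. Of these 5, 2 were higher and 3 lower in EA. The fatty acid elongase gene bond was at 414.8, 499.2, 509.8 and 501.5 in EA and 539.9, 1372, 822.1 and 1581 in WT. Baldspot, another elongase gene, was at 1915, 1857, 1633 and 1631 in EA and 2020, 4301, 3021 and 4625 in WT. No EA library of either gene reached the WT range, but WT replicate 1 lay close to EA, and WT replicates 2 and 4, which stood apart on the first principal component, were the highest. On the log2 scale the differences were -1.04 for bond and -0.92 for Baldspot (adjusted p = 0.154 and 0.110 in limma, DESeq2 adjusted p = 0.0023 and 0.00107). Without WT replicates 2 and 4 they were -0.47 and -0.49 (limma adjusted p = 0.422 and 0.393). The largest positive value was that of Cyt-b5-r, a gene related to cytochrome b5 (1.03 ± 0.43, limma adjusted p = 0.361). The desaturase gene Desat1 had 12143, 8729, 27926 and 16203 in EA and 7944, 8865, 7304 and 9458 in WT (0.82 ± 0.30, limma adjusted p = 0.273 and DESeq2 adjusted p = 0.0281). EA replicate 3 was the high and EA replicate 2 the low library of its group, as for Mtp and bmm.

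Lipid transport had 11 positive of 19 (median 0.046), with 3 at an unadjusted p under 0.05, 2 in DESeq2 and 1 in edgeR, which was apolpp. After apolpp the largest absolute difference was in Fatp2, a fatty acid transport protein, at 45.8, 65.0, 72.2 and 68.3 in EA and 84.7, 148.4, 98.2 and 146.0 in WT (log2 fold change -0.89 ± 0.22, SE; limma adjusted p = 0.106, DESeq2 adjusted p = 0.00572). Every EA library lay below every WT library, and WT replicates 2 and 4 were again the highest. Without these WT libraries the log2 fold change was -0.55 (limma adjusted p = 0.438).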

How the data were processed

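The authors aligned reads with TopHat and obtained gene levels with DESeq2, and the submitters' processing notes also name featureCounts, Subread, dm3 and BDGP5. Versions and strand setting are not given in the sources used here. The deposited signal per gene and library is a read count divided by 1 size factor per library. All values (100%) were whole multiples of the smallest value in their column within 0.01, so whole reads were recovered. The deposited table also holds the authors' mean signal, log2 fold changes with errors, Wald score and p-values, which were not used. Symbols, positions and exon lengths came from Ensembl BDGP6.54, which named 14023 of 14622 identifiers (95.9%). No count was recomputed from positions.

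Genes with a mean of at least 10 were tested with limma 3.58.1 (lmFit, eBayes with trend; R 4.3.3) on log2(value + 1), two-sided, group as the only term, Benjamini-Hochberg adjustment. A fold change on this scale understates the change of low genes. edgeR 4.0.16 (quasi-likelihood) and DESeq2 1.42.0 were run on recovered reads. The limma step was tested on simulated data. The 9 genes and the lists were chosen with earlier results of these data known. Named genes were the set itself, list genes past the threshold or otherwise the 2 largest changes, and the 5 most alike in profile. Baldspot, Desat1, Galphaf, Lsp1beta, to, Obp99b, Pepck1, SCAP, ImpL2, daw, trp, trpl, sls, 18SrRNA-Psi:CR41602 and the ratios were picked after their values were seen. Alternatives were other scalings (TMM, library totals, upper quartile), pseudocounts of 0.5 and 8, no filter or a minimum of 50, a replicate block and leaving out each library. Leaving out WT replicates 2 and 4 together was added after seeing the data.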

Additional observations from a re-analysis of the deposited data

Results flagged for a closer look

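In 24 groups of 4 libraries, taken from the 9 lipid genes and the 3 list genes that passed the test, 1 had a library apart from the rest by Dixon's test at the 95% level. It was apolpp in EA replicate 2, at 50807 normalized counts against 94461 to 101035 in the other EA libraries. The gap was 0.869 of the group's range, where 0.829 is the critical value. Chance alone would set apart a library in about 1 of 20 groups.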

How the results depend on the processing

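The median log2 fold change of the 9 genes, 0.43, was positive in all 19 alternatives but ranged from 0.21 (without EA replicate 3) to 0.58 (without EA replicate 2), and was 0.27 without WT replicate 1. The count of genes passing, 0 in limma, became 1 (apolpp) with library totals, upper-quartile scaling, edgeR and DESeq2, and was 0 to 1 with 1 library left out. Of the 9 genes, Lpin alone reversed, from -0.015 to 0.073 with library totals and 0.021 without WT replicates 2 and 4. The adjusted p of apolpp ranged from 1.42e-05 to 0.271. The 3 other lipid genes that passed became 10 with DESeq2 and 1 without WT replicates 2 and 4, and 1 to 4 with 1 library left out, where the 3 without WT replicate 1 were CCHa2, higher, and Baldspot and bond, lower. The 0 fat body markers became 3 with library totals, 2 with upper-quartile scaling, 2 with edgeR and 5 with DESeq2, and 0 to 3 with 1 library left out (3 higher without EA replicate 2, and Galphaf, lower, without WT replicate 1). Over all genes the 125 became 79 with a minimum of 50, 532 with DESeq2, 20 without WT replicates 2 and 4, and 38 to 186 with 1 library left out. The cause of these moves was not tested. Library totals moved the median of all genes by 0.088. With the replicate number as a block, 1 of the other lipid genes (CCHa2), 0 of the 9 and 26 of all genes passed. Deviations of same-numbered libraries from their group means had r = 0.19, -0.19, -0.23 and -0.12 for replicates 1 to 4. No strong shared deviation was seen, but whether the numbers pair the libraries cannot be told from these values. Depth was 9930607 to 24342035 reads, and each of the 9 genes had at least 165 reads in every library.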
